A study of Mus musculus with 6 samples.

Results

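The genes described here encode the general factors that start and carry out protein synthesis in the cytoplasm, the eukaryotic initiation factors (eIF) and elongation factors (eEF), with their close paralogs and several enzymes that modify the elongation factors. They were chosen by a rule on their names, which was set with earlier results of these data known. All protein-coding mouse genes whose symbol begins with Eif1, Eif2b, Eif2s, Eif3, Eif4, Eif5, Eif6, Eef1 or Eef2 were taken, without Eif4ebp1 and Eif2s3y, and 59 of the 48526 gene identifiers in the count tables met this rule. Of these 59 genes, 55 passed the filter on low counts, as did 14531 genes in all. Another 7 identifiers with fitting symbols are pseudogenes and were not used.

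The study measured total RNA of mouse KP cells by RNA sequencing after an induced knockdown of Npm1, the gene of the nucleolar protein nucleophosmin. KP is the labels' name for the cells, which they do not explain. The cells carried pLKO.1-Tet on, a vector from which a short hairpin RNA against Npm1 is made only when doxycycline is present, and puromycin selection had given 3 stable lines with a different hairpin each, called line 3, line 4 and line 5 here. Each line was sequenced with 100 ng/ml doxycycline, the knockdown group, and without doxycycline, the control group, as 1 library per line and condition. All 6 libraries therefore carry the vector and a hairpin, and none combines doxycycline with a line that lacks an Npm1 hairpin, so that an effect of the drug and of the knockdown cannot be told apart. The lines stood in for replicates. Each p-value of treated against untreated libraries below measures a difference against the spread between these 3 lines, unless the line was a block. With the line as a block, and in the test of the lines, the spread is that left after line and doxycycline. Ratios of paralogs had a permutation test of their own. The labels do not give the time of treatment.

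Initiation factors load the initiator transfer RNA onto the small ribosomal subunit, bring that subunit to the capped end of a messenger RNA, scan for the start codon and then let the large subunit join. The elongation factor eEF1A delivers charged transfer RNAs to the ribosome, and eEF2 moves the ribosome forward by a codon after each peptide bond. The messages of elongation factors and of some initiation factors begin with a run of C and T (U in the RNA), the terminal oligopyrimidine or TOP motif, which they share with the messages of ribosomal proteins and of Npm1 itself and through which mTOR signalling controls their translation.

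Npm1 itself had 67.8, 245 and 400.0 CPM (read counts scaled to library size with edgeR's TMM factors) in lines 3, 4 and 5 with doxycycline, against 2002, 1851 and 1924 CPM without it, so that 3.39%, 13.2% and 20.8% of its level remained in lines 3, 4 and 5. Its log2 fold change was -3.02 (edgeR adjusted p = 0.0110), and it missed the threshold without the untreated library of line 3 (edgeR adjusted p = 0.0937) or without line 4 (edgeR adjusted p = 0.177). Libraries held 24391198 to 27341036 counts in genes with doxycycline and 25270163 to 26756552 without it. The library of line 3 with doxycycline stood apart from the rest. Its TMM scaling factor was 0.896, against 0.971 to 1.11 in the other 5 libraries. Reads with more than 1 alignment, which were not counted, made up 37.8% of its reads, against 31.4% to 34.6% in the other 5, and the chi-square per degree of freedom of its counts was 108 and 80.9 against the other 2 treated libraries, which differed from each other by 35.8. At the other end was the library of line 4 with doxycycline. It had the highest scaling factor, 1.11, and the smallest share of reads with more than 1 alignment, 31.4%. Among untreated libraries the chi-square was 22.6 and 15.1 for line 3 against lines 4 and 5, and 7.86 between lines 4 and 5. Markers of other cell types moved with doxycycline. The summed level of 10 macrophage markers was 127 to 257 CPM with doxycycline and 44.6 to 49.4 CPM without it. Of these markers, 7 of 9 tested were higher at an edgeR adjusted p under 0.05, and Marco was at 0 with doxycycline. The sum of 10 T lymphocyte markers was 4.82 to 7.74 CPM with doxycycline and 18.9 to 25.04 CPM without it. Here 7 of 10 tested genes were lower at an edgeR adjusted p under 0.05, and Cd3d and Nkg7 were at 0 with doxycycline. The sum of 7 epithelial markers was 8899 to 10608 CPM with doxycycline and 10124 to 12109 CPM without it, with 1 of 7 tested genes lower. The sums of the B lymphocyte, fibroblast, endothelial and erythroid lists were at most 6.32 CPM in each library. The part of these marker changes in the results below was not tested.

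None of the 55 tested factor genes passed the test of doxycycline against the spread between lines. At an edgeR adjusted p under 0.05 the fit over all genes called 0 of the 55, with 2.28% of all tested genes called (0.963% higher and 1.32% lower). With the line as a block it also called 0 of the 55, with 1.67% of all tested genes called. DESeq2 and limma-voom also called 0 of the 55, with 4.95% and 2.33% of all tested genes called. The lowest adjusted p among the factor genes was 0.122 in edgeR, 0.164 with the block, 0.0595 with DESeq2 and 0.120 with limma-voom, each for Eef1akmt2. At an unadjusted p under 0.05 in edgeR there were 11 factor genes, 8 higher and 3 lower. They are 20% of the 55, against 16.3% of all tested genes (8.33% higher and 7.96% lower). The log2 fold change was above 0 in 31 of the 55, or 56.4%, against 50.4% of all tested genes, and the median log2 fold change was 0.02 for the factor genes and 0.00 for all tested genes. Their log2 fold changes ran from -0.59 for Eef2 to 0.73 for Eif5a2, and the quartiles lay at -0.13 and 0.24, against -0.19 and 0.21 for all tested genes. The median standard error of these log2 fold changes was 0.15. In 13 of the 55 genes, or 23.6%, the treated and untreated libraries did not overlap (10 above, 3 below), against 22.6% of all tested genes (11.3% above, 11.2% below). The shares over both directions, 20% and 23.6%, lie near those of all tested genes, 16.3% and 22.6%. By direction the factor genes leaned higher, at 8 against 3 and 10 against 3, where all tested genes split nearly evenly. This lean was not tested, and it changed with the libraries and the fit. Without the treated library of line 3, 8 factor genes were higher and 9 lower at an unadjusted p under 0.05 in edgeR. Among all genes 3998 of 14968 passed that cutoff there. The share of factor genes above 0 was then 47.3%, against 50.8% of all tested genes. Without the treated library of line 4 it was 70.9%, against 49.7%. With offsets for transcript length and GC content it was 52.7%, against 54.4%. In bulk RNA, fewer cells of a type and less RNA per cell cannot be told apart, and a level of messenger RNA gives no measure of translation.

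The ratios within a line ran in different directions in the 3 lines. Within a line, the median log2 ratio of the factor genes with over without doxycycline was 0.22, -0.05 and -0.00 in lines 3, 4 and 5, against 0.00, -0.01 and -0.00 for all tested genes. In line 3, 40 of the 55 ratios were above 0 (72.7%, against 50% of all tested genes), compared with 24 in line 4 and 27 in line 5. The pattern of a positive ratio in line 3 with negative ratios in lines 4 and 5 was found in 19 of the 55 genes (34.5%), against 16.4% of all tested genes. With libraries scaled by their total counts, which shifts all genes of a library alike, the medians were 0.10, 0.09 and 0.07 in lines 3, 4 and 5, against -0.10, 0.11 and 0.06 for all tested genes, and the pattern was found in 10 of the 55 genes (18.2%), against 9.04% of all tested genes. Under both scalings the median of the factor genes in line 3 lay above that of all tested genes. In 5 genes the opposite signs had a size of at least 0.2 in every line and held under each of 3 scalings, with 4.29% of all tested genes, and 0 factor genes showed the reverse order, with 4.15% of all tested genes. Another 17 genes had positive ratios in all 3 lines (30.9%, against 19.1% of all tested genes) and 5 had negative ratios in all 3 lines (9.09%, against 19.5%). The factors with positive ratios in each line include the eIF2B subunits Eif2b1, Eif2b3 and Eif2b4, Eif4e, Eif4a1, both eIF5A genes, and the methyltransferase genes Eef1akmt1 and Eef1akmt2. Those with negative ratios in each line are Eif3f, Eif4g3, Eif4h, Eif5b and Eef2k. With offsets for transcript length and GC content, Eef1d, Eif2s1, Eif3e, Eif3j1, Eif4a1 and Eif5a2 no longer had positive ratios in all 3 lines. Eif4h, Eif5b and Eef2k then no longer had negative ratios in all 3 lines. Other genes gained a shared sign, so that 18 factor genes had positive and 7 had negative ratios in each line. Among all tested genes 21.3% were positive and 17.2% negative in each line under these offsets. A test of whether the lines differed in level after allowing for doxycycline gave 0 factor genes and 0 genes in all (0%) at an edgeR adjusted p under 0.05. At an unadjusted p under 0.05 in edgeR that test gave 2 factor genes, Eif4a2 and Eif3h, with 4.59% of all tested genes. With 1 library per line and condition, whether doxycycline acted differently between lines was not tested.

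**Figure D1:**
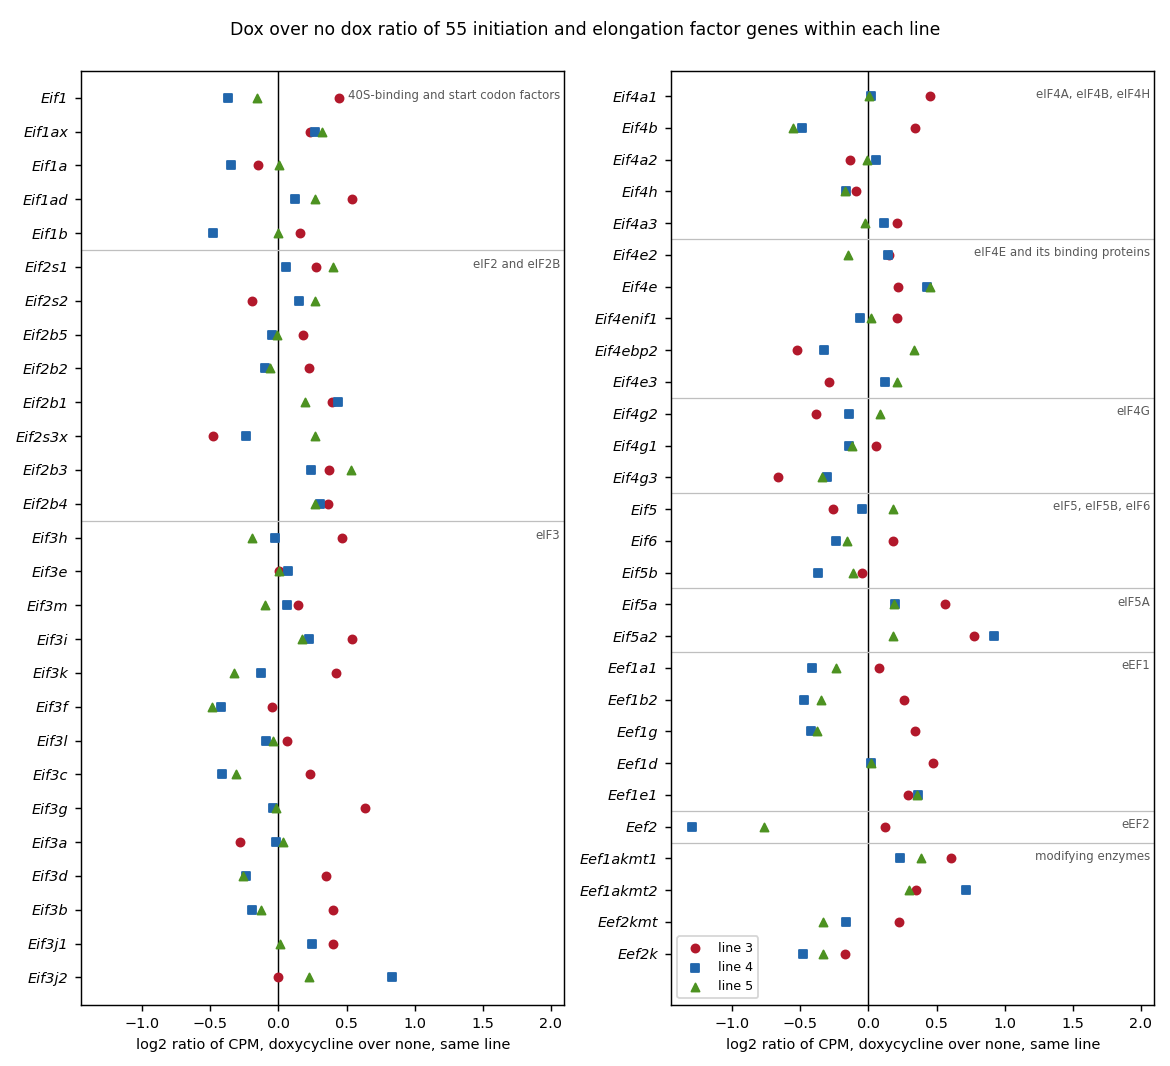
Log2 ratio of CPM with over without doxycycline in the same line (x axis) for the 55 tested factor genes, grouped by role and ordered within a role by level; red circles are line 3, blue squares line 4 and green triangles line 5. The ratios of line 3 are above 0 in 40 of the 55 genes, and Eef2 has the most negative ratios, -1.30 in line 4 and -0.77 in line 5.

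The factors differ widely in the level of their messages. On the scale of CPM per kilobase of annotated exon, averaged over the 6 libraries, Eef1a1 stood highest at 13146, followed by Eef1b2 at 931, Eif3h at 783, Eif5a at 602 and Eef2 at 482. Eef1a1 alone took 2.59% to 3.74% of all counts in genes with doxycycline and 3.15% to 3.84% without it. The 59 genes together took 5.80%, 4.42% and 4.76% of the counts in lines 3, 4 and 5 with doxycycline, against 5.74%, 5.06% and 5.17% without it, so that the groups overlap. Each role has a leading gene: Eif1 among the factors that bind the small subunit (278 CPM per kilobase), Eif2s1 in eIF2 and eIF2B (105), Eif4a1 among the helicase factors (251), Eif4g2 in the eIF4G family (101) and Eif5 among the factors of subunit joining (118). The cap-binding gene Eif4e had 24.2 CPM per kilobase, and its paralog Eif4e2 had 20.7. Both this order and that of Eif3h and Eif5a turned with the longest transcript as the length. Eif4e2 then had 44.7 against 29.1 for Eif4e, and Eif5a had 996 against 975 for Eif3h. At the other end, Eef1a2, the eEF1A gene of muscle and neurons, and Eif4e1b, an eIF4E relative of germ cells, had 0 counts in all 6 libraries. A count of 0 allows up to 0.0991 to 0.137 CPM with doxycycline and 0.115 to 0.118 CPM without it, taking 3 counts per library as the limit. Eif4ebp3, a translation repressor that binds eIF4E, had 0 to 0.183 CPM with doxycycline and 0.0770 to 0.192 CPM without it. Of its exon bases, 67.3% overlap another gene on the same strand, so its level is uncertain. The methyltransferase gene Eef1akmt3 had 0.115 to 0.330 CPM with doxycycline and 0.0770 to 0.118 CPM without it. These 4 genes were not tested.

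**Figure D2:**
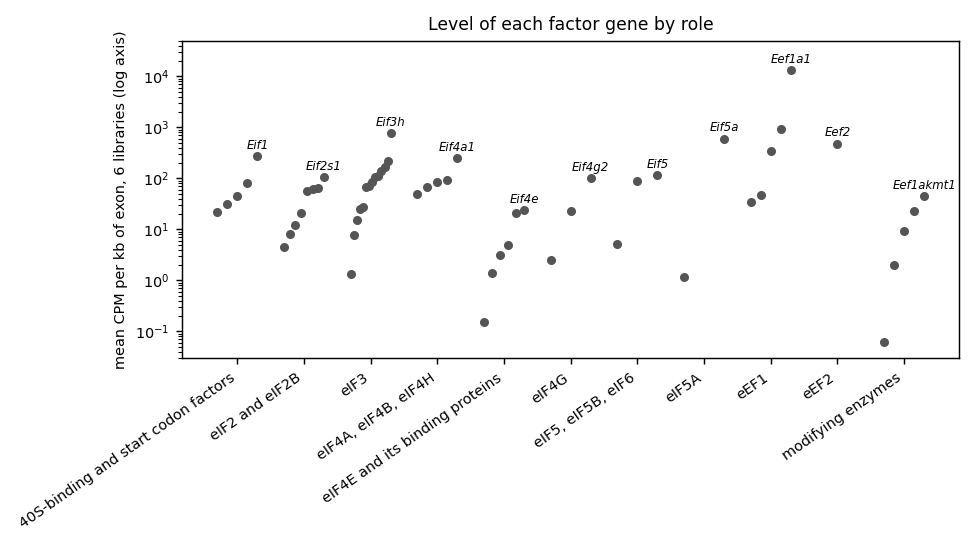
Mean CPM per kilobase of annotated exon over the 6 libraries (log axis) for the factor genes by role, with the highest gene of each role named; genes with 0 counts are not drawn. Eef1a1 at 13146 stands above all others, and Eif3h at 783 stands above the other eIF3 subunits.

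Among the factors that bind the small subunit and select the start codon, Eif1 guards the accuracy of that choice. It had 781, 429 and 549 CPM in lines 3, 4 and 5 with doxycycline, against 573, 554 and 612 CPM without it. The treated library of line 3 was the highest of the 6 and that of line 4 the lowest, and the groups overlap (log2 fold change 0.02, standard error 0.20, edgeR adjusted p = 0.983). Its paralog Eif1b had 39.3, 25.3 and 36.6 CPM with doxycycline in lines 3, 4 and 5, and 35.2, 35.4 and 36.7 CPM without it, and 12.7% of its exon bases overlap exons of a gene on the opposite strand. Eif1ax and Eif1a both encode eIF1A, which holds the scanning complex open. Eif1ax had 494, 418 and 478 CPM in lines 3, 4 and 5 with doxycycline, against 420.4, 346 and 382 CPM without it. Eif1a had 186, 151 and 193 CPM in lines 3, 4 and 5 with doxycycline, against 206, 193 and 192 CPM without it. Eif1ax was higher with doxycycline in each line and Eif1a lower in lines 3 and 4, and in both genes the groups overlap. Eif1ad encodes a protein with an eIF1A-like domain. It had 73.2, 56.7 and 71.4 CPM with doxycycline in lines 3, 4 and 5, against 50.3, 52.1 and 59.2 CPM without it (log2 fold change 0.32, standard error 0.14, edgeR adjusted p = 0.296). Without both libraries of line 3 its log2 fold change was 0.21 (edgeR adjusted p = 0.413). It was higher in each line, but line 4 with doxycycline lay below line 5 without it, and 15.3% of its exon bases overlap a gene on the opposite strand.

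eIF2 carries the initiator transfer RNA, and eIF2B is the exchange factor that reloads it with GTP, the step on which stress kinases act. The log2 fold change was above 0 in 7 of their 8 genes, and Eif2s3x was the exception at -0.13 ± 0.16 (SE). All gene coordinates given here are those of mm10. Eif2b3 encodes the gamma subunit of eIF2B (ENSMUSG00000028683, chr4:117019402-117087306, plus strand). It had 33.7, 29.4 and 36.9 CPM in lines 3, 4 and 5 with doxycycline, against 26.0, 24.9 and 25.3 CPM without it. All treated libraries were above all untreated ones (log2 fold change 0.39, standard error 0.13, edgeR adjusted p = 0.179). Eif2b1 encodes its alpha subunit (ENSMUSG00000029388, chr5:124570213-124579131, minus strand). It had 58.2, 63.6 and 62.6 CPM in lines 3, 4 and 5 with doxycycline, against 44.2, 46.9 and 54.7 CPM without it. Here too the groups do not overlap (log2 fold change 0.34, standard error 0.13, edgeR adjusted p = 0.221). Eif2b4, the delta subunit, had 20.6, 24.1 and 24.8 CPM with doxycycline in lines 3, 4 and 5, and 15.9, 19.4 and 20.5 CPM without it; its groups were separated by less than 0.1 CPM (log2 fold change 0.32, standard error 0.15, edgeR adjusted p = 0.341). The catalytic subunit gene Eif2b5 had a log2 fold change of 0.04 ± 0.12 (SE) and Eif2b2, the beta subunit, 0.02 ± 0.12 (SE). Eif2s1, the subunit whose phosphorylation shuts initiation down, had 618, 443 and 641 CPM in lines 3, 4 and 5 with doxycycline, against 509.8, 428 and 486 CPM without it. Line 4 showed nearly the same level with and without doxycycline, and the groups overlap (log2 fold change 0.26, standard error 0.17, edgeR adjusted p = 0.495). Eif2s2, the beta subunit of eIF2, had a log2 fold change of 0.09 ± 0.15 (SE).

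eIF3 is the largest initiation factor, a complex of many subunits that holds the small subunit and the messenger RNA together. Its 14 genes had summed levels of 6084, 4280.1 and 4295 CPM in lines 3, 4 and 5 with doxycycline, against 4929, 4414 and 4688 CPM without it. Line 3 with doxycycline was the highest, and lines 4 and 5 with doxycycline were below their own controls. The log2 fold change was above 0 in 9 of the 14 genes and below 0 in 5. Eif3h encodes a subunit with an MPN domain (ENSMUSG00000022312, chr15:51786558-51865523, minus strand). It was the most abundant eIF3 gene, with 1864, 1057 and 1039 CPM in lines 3, 4 and 5 with doxycycline, against 1349.7, 1076 and 1188 CPM without it. Its level per kilobase was 783, against 217 for Eif3m, the next subunit, and 1.31 to 166 for the remaining 12 genes. With the longest transcript as the length Eif3h again stood highest, at 975 against 286 CPM per kilobase for Eif3m. Its log2 fold change was 0.13 ± 0.23 (SE), and without the library of line 3 with doxycycline it was -0.20 (edgeR adjusted p = 0.329), on the other side of 0. Eif3i, a subunit with WD repeats, was the eIF3 gene with the smallest p, at 708, 505 and 530.2 CPM in lines 3, 4 and 5 with doxycycline, against 487, 432 and 469.7 CPM without it. Every treated library lay above every untreated one (log2 fold change 0.33, standard error 0.16, edgeR adjusted p = 0.349), and without the library of line 3 with doxycycline its log2 fold change was 0.17 (edgeR adjusted p = 0.362). Eif3f encodes the other MPN subunit (ENSMUSG00000031029, chr7:108934417-108942951, plus strand). It had 336, 251 and 237 CPM in lines 3, 4 and 5 with doxycycline, against 347, 336 and 333 CPM without it. The treated libraries of lines 4 and 5 lay well below the untreated ones and that of line 3 among them (log2 fold change -0.30, standard error 0.15, edgeR adjusted p = 0.367). Eif3c, a core subunit, had 241, 212 and 214 CPM with doxycycline in lines 3, 4 and 5, and 205, 283 and 265 CPM without it. Eif3d, the subunit known from human cells to bind the cap of some messages, had 147, 109 and 111 CPM with doxycycline in lines 3, 4 and 5, and 115, 129 and 133 CPM without it. Both were higher in line 3 and lower in lines 4 and 5 than their own controls, and 43.3% of the exon bases of Eif3d overlap a gene on the opposite strand. Eif3g, which carries an RNA recognition motif, was at 311, 196 and 218 CPM with doxycycline and 200.03, 202 and 220.2 CPM without it in lines 3, 4 and 5, so that line 3 with doxycycline alone stood high. Eif3j1, the loosely bound subunit that helps recycling, had 53.9, 50.4 and 44.5 CPM with doxycycline in lines 3, 4 and 5, and 40.7, 42.5 and 44.0 CPM without it; its groups do not overlap (log2 fold change 0.23, standard error 0.12, edgeR adjusted p = 0.412), and 19.0% of its exon bases overlap a gene on the opposite strand. Its copy Eif3j2 had only 3.18 to 4.16 CPM with doxycycline and 2.12 to 3.31 CPM without it. Reads that fit both copies were not counted for either, so their levels are uncertain. The other eIF3 genes, Eif3a, Eif3b, Eif3e, Eif3k, Eif3l and Eif3m, had log2 fold changes of -0.08 to 0.04, each smaller than its standard error.

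In the helicase group, Eif4a1, the main helicase that unwinds the start of messages, had 1352, 1059 and 1037 CPM in lines 3, 4 and 5 with doxycycline, against 991, 1045 and 1033 CPM without it. Line 3 with doxycycline was the highest and the other 5 libraries lay within 991 to 1059 CPM (log2 fold change 0.17, standard error 0.16, edgeR adjusted p = 0.663). Its paralog Eif4a2 had 422, 321 and 345 CPM with doxycycline in lines 3, 4 and 5, and 462, 309 and 348 CPM without it. Line 3 was highest in both groups (unadjusted p = 0.0336 for the lines, edgeR adjusted p = 0.868), and 9.63% of its exon bases overlap another gene on the same strand. Eif4b encodes a cofactor that stimulates the helicase (ENSMUSG00000058655, chr15:102073773-102097173, plus strand). It had 471, 321 and 288 CPM in lines 3, 4 and 5 with doxycycline, against 371, 452 and 423 CPM without it. Line 3 with doxycycline was the highest of the 6 libraries, and lines 4 and 5 with doxycycline were the lowest (log2 fold change -0.21, standard error 0.19, edgeR adjusted p = 0.650). Eif4h, a related cofactor, was lower in each line with a log2 fold change of -0.14 ± 0.13 (SE), and Eif4a3, the helicase of the exon junction complex, had 0.10 ± 0.12 (SE).

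Of the genes around the cap, Eif4e encodes the cap-binding protein itself, a known oncoprotein (ENSMUSG00000028156, chr3:138526179-138559696, plus strand). It had 161, 157 and 173 CPM in lines 3, 4 and 5 with doxycycline, against 138, 116 and 126 CPM without it. All treated libraries were above all untreated ones (log2 fold change 0.37, standard error 0.12, edgeR adjusted p = 0.167). The group means were 163 ± 8.41 CPM with doxycycline and 127 ± 10.7 CPM without it (SD, n = 3 each). Eif4e2, a cap-binding paralog that takes part in repression, had 173, 161 and 140.4 CPM with doxycycline in lines 3, 4 and 5, and 156, 145 and 156 CPM without it, with overlapping groups (log2 fold change 0.05, standard error 0.12, edgeR adjusted p = 0.887). Eif4ebp2, a repressor that mTOR releases from eIF4E, had a log2 fold change of -0.15 ± 0.19 (SE), with ratios of -0.53, -0.33 and 0.34 in lines 3, 4 and 5. Eif4enif1, which carries eIF4E to the nucleus and to processing bodies, and Eif4e3, an eIF4E paralog, had 0.05 ± 0.13 and 0.01 ± 0.24 (SE).

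The eIF4G genes encode the scaffold that joins the cap, the helicase and eIF3, and all 3 log2 fold changes were below 0. Eif4g3 encodes the less abundant scaffold (ENSMUSG00000028760, chr4:137993022-138208508, plus strand). It had 18.3, 26.0 and 25.5 CPM in lines 3, 4 and 5 with doxycycline, against 29.3, 32.3 and 32.4 CPM without it. All treated libraries were below all untreated ones, with line 3 lowest (log2 fold change -0.43, standard error 0.16, edgeR adjusted p = 0.218), and without the library of line 3 with doxycycline the log2 fold change was -0.28 (edgeR adjusted p = 0.185). Eif4g1, the main scaffold, had 150.3, 178 and 159 CPM with doxycycline in lines 3, 4 and 5, and 144, 197 and 173 CPM without it, and its fold change of -0.08 ± 0.14 (SE) was 0.12 (edgeR adjusted p = 0.666) once offsets for transcript length and GC content were put into the fit. Eif4g2, which lacks the part that binds eIF4E and serves initiation without the cap, had 835, 987 and 1110.2 CPM with doxycycline in lines 3, 4 and 5, and 1092, 1092 and 1048 CPM without it. The groups overlap in both genes.

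Among the late initiation factors, Eif5, the GTPase-activating protein for eIF2, had 749, 744 and 887 CPM in lines 3, 4 and 5 with doxycycline, against 896, 767 and 784 CPM without it, and the groups overlap (log2 fold change -0.04, standard error 0.15, edgeR adjusted p = 0.931). Eif5b, the GTPase of subunit joining, had 48.9, 43.7 and 48.9 CPM in lines 3, 4 and 5 with doxycycline, against 50.5, 56.7 and 52.8 CPM without it. The groups do not overlap, but only by a narrow margin (log2 fold change -0.18, standard error 0.12, edgeR adjusted p = 0.511), and 16.9% of its exon bases overlap a gene on the opposite strand. Eif6, which keeps the large subunit from joining too early and works in the nucleolus as well, had ratios of 0.18, -0.24 and -0.16 in lines 3, 4 and 5.

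The eIF5A protein, which frees ribosomes stalled on difficult peptide stretches and carries the amino acid hypusine, comes mainly from Eif5a. Eif5a (ENSMUSG00000078812, chr11:69916714-69921958, minus strand) had 1857, 1416 and 1499.6 CPM in lines 3, 4 and 5 with doxycycline, against 1260.2, 1239 and 1318 CPM without it. The treated libraries lay above the untreated ones, line 3 by the most (log2 fold change 0.32, standard error 0.16, edgeR adjusted p = 0.363). Eif5a2, a paralog known from tumours, had 8.93, 8.56 and 4.67 CPM in lines 3, 4 and 5 with doxycycline, against 5.01, 4.27 and 4.07 CPM without it. Lines 3 and 4 stood out with doxycycline, while line 5 with doxycycline lay within the untreated range (log2 fold change 0.73, standard error 0.27, edgeR adjusted p = 0.207).

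A TOP motif lies at the very start of a message. The longest run of C and T was looked for in a window from 25 bases before to 50 bases after the annotated first base. The 30 bases around that run, which need not hold the first base, are given for 5 factors that were lower in lines 4 and 5 and for 2 that were higher in each line. The sequences are from RefSeq on GRCm38.p6, read 5′ to 3′ along the transcribed strand, with the run in capitals.
Eef2, chr10:81176635-81176664, plus strand: acgtcagcggTCTCTTCCgccgcagccgcc
Eef1a1, chr9:78481710-78481739, minus strand: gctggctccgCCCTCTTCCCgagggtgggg
Eef1b2, chr1:63176851-63176880, plus strand: tgcgtccgagcgCTTTCgttcaactccggc
Eif3f, chr7:108934401-108934430, plus strand: ctgttctaggCTCTCTCTCTTTCTCggcaa
Eif4b, chr15:102073750-102073779, plus strand: gtcgcgcaggTCTTCCCgtcggacgccgcg
Eif4e, chr3:138527233-138527262, plus strand: tgaatctcatTTTTTTCCTCTCgccccccc
Eef1akmt2, chr7:132852641-132852670, minus strand: caggtccgcgCCTCCCCTCTgcccaaatcg
Counted from the annotated first base as 0, the run begins at -5 in Eef1a1 and -4 in Eif3f and spans the first base in both. It begins at 14 in Eef2 and 32 in Eef1b2, inside the message. In Eif4b and Eef1akmt2 it begins at -13, and in Eif4e at -25, the edge of the window, and in these 3 genes it ends before the first base. A run of at least 8 such bases was found in 16 of the 44 factor genes with an entry (36.4%), against 30.4% of 27025 genes with an entry. A run counted here can thus lie upstream of the message. Eef1b2 and Eif4b, which are known TOP messages, have shorter runs in this window. For genes with several annotated starts the start with the longest run was taken, among the factor genes as among all genes, and the count depends on where RefSeq places these starts. The median log2 ratio in lines 3, 4 and 5 was 0.15, -0.09 and -0.04 for the 15 tested genes with a run and 0.25, -0.04 and -0.01 for the 28 without one.

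Eef2 encodes the translocase of elongation and is the only gene of its role (ENSMUSG00000034994, chr10:81176631-81182498, plus strand). It had 1823, 889 and 1121 CPM in lines 3, 4 and 5 with doxycycline, against 1676, 2187 and 1909 CPM without it. The level in line 3 with doxycycline lay between those of the untreated lines, while lines 4 and 5 with doxycycline lay far below every other library. The log2 ratio with over without doxycycline was 0.12, -1.30 and -0.77 in lines 3, 4 and 5, and the group means were 1278 ± 486 CPM with doxycycline and 1924 ± 256 CPM without it (SD, n = 3 each). Over the 3 lines the difference did not pass the threshold (log2 fold change -0.59, standard error 0.25, edgeR adjusted p = 0.282). Without the library of line 3 with doxycycline the log2 fold change was -0.93 (edgeR adjusted p = 0.00282), and without both libraries of line 3 it was -1.02 (edgeR adjusted p = 0.0213). Without the treated library of line 4 it was -0.39 (edgeR adjusted p = 0.425), and without both libraries of line 4 it was -0.29 (edgeR adjusted p = 0.836). Leaving out the filter on low counts also brought Eef2 past the threshold, at -0.60 (edgeR adjusted p = 0.0219), with 3.9% of all genes called there.

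Within eEF1, Eef1a1 encodes the abundant eEF1A that brings charged transfer RNAs (ENSMUSG00000037742, chr9:78478449-78489151, minus strand). It had 41792, 23389.5 and 27815 CPM in lines 3, 4 and 5 with doxycycline, against 39564, 31203 and 32877 CPM without it. Line 3 was the highest in both groups, and lines 4 and 5 with doxycycline were the lowest (log2 fold change -0.16, standard error 0.29, edgeR adjusted p = 0.846). The ratio in line 3, 0.08 on the log2 scale, was -0.04 with total counts as the scaling, above the median of all tested genes in line 3 (0.00 and -0.10) in both cases. Exon bases shared with other genes on the same strand were 4.33% in Eef1a1, 6.95% in Eef1b2 and 6.62% in Eif4a1, and reads that fit Eef1a1 and one of its processed copies equally were counted for neither. Eef1b2 and Eef1g, subunits of the exchange factor that recharges eEF1A with GTP, were higher in line 3 and lower in lines 4 and 5 than their own controls. Eef1b2 had 3219.5, 1597 and 1947 CPM with doxycycline in lines 3, 4 and 5, and 2683, 2216 and 2476 CPM without it. Eef1g had 1086, 718 and 782 CPM with doxycycline in lines 3, 4 and 5, and 857, 960.2 and 1015 CPM without it. The log2 ratio in lines 3, 4 and 5 was 0.26, -0.47 and -0.35 for Eef1b2 and 0.34, -0.42 and -0.38 for Eef1g. Eef1d, the remaining subunit of that complex, did not share this, with ratios of 0.47, 0.02 and 0.02. Eef1e1, whose product belongs to the complex of transfer RNA synthetases despite its name, had 135, 119 and 130.2 CPM in lines 3, 4 and 5 with doxycycline, against 109.9, 92.1 and 102 CPM without it. Its groups do not overlap, the treated one being higher (log2 fold change 0.34, standard error 0.12, edgeR adjusted p = 0.209).

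**Figure D3:**
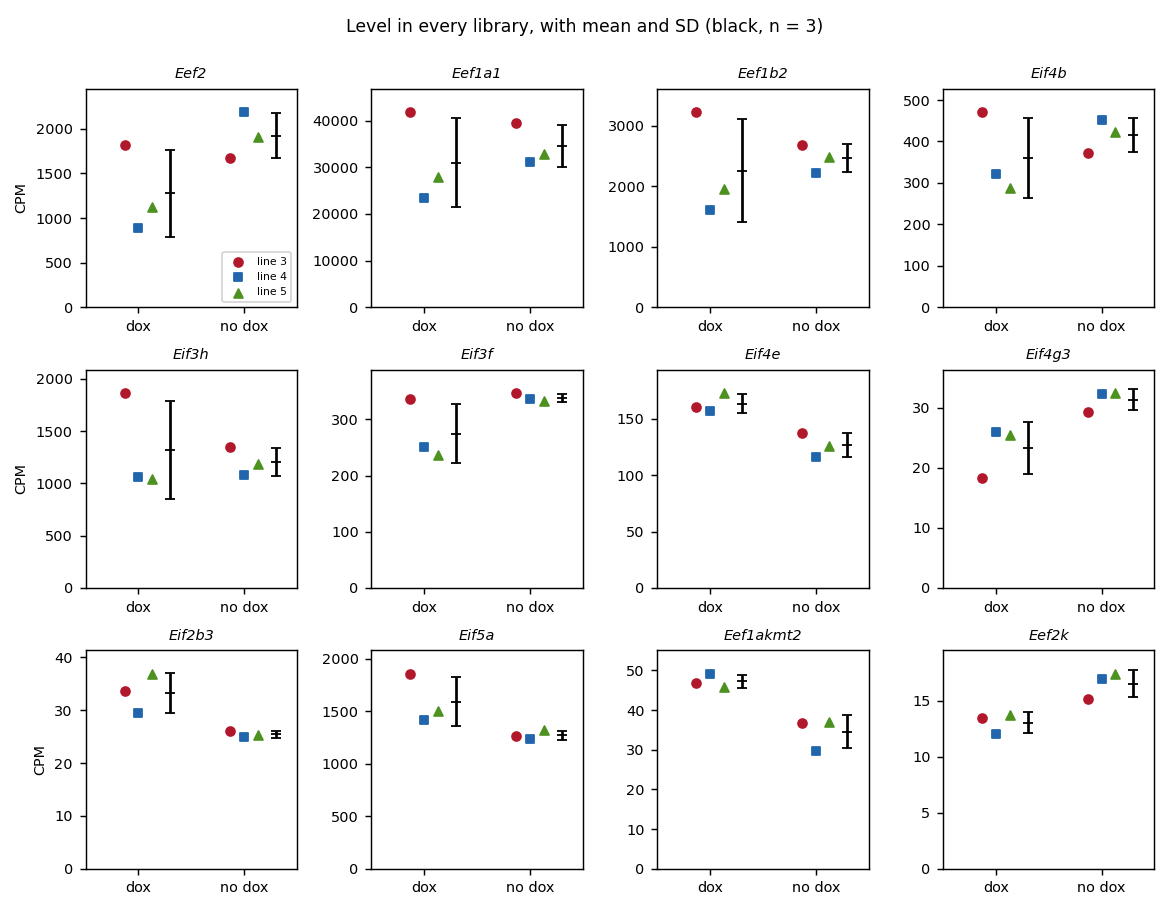
CPM (y axis, from 0) in every library for 12 factor genes, with doxycycline on the left and without it on the right of each panel; coloured points are lines 3, 4 and 5, and black bars show the mean and SD (n = 3). In Eef2, Eef1a1, Eef1b2 and Eif4b the treated library of line 3 lies far from those of lines 4 and 5, while in Eif4e, Eif4g3, Eif2b3, Eif5a, Eef1akmt2 and Eef2k the treated and untreated libraries do not overlap.

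The enzymes that modify the elongation factors included the smallest p-values. Eef1akmt2 (ENSMUSG00000030960, chr7:132827457-132852673, minus strand) and Eef1akmt1 (ENSMUSG00000021951, chr14:57549597-57571612, minus strand) encode methyltransferases that act on lysines of eEF1A. Eef1akmt2 had 46.8, 49.2 and 45.7 CPM in lines 3, 4 and 5 with doxycycline, against 36.7, 29.7 and 37.1 CPM without it. The groups do not overlap (log2 fold change 0.45, standard error 0.13, edgeR adjusted p = 0.122), and with offsets for transcript length and GC content in the fit its log2 fold change was 0.24 (edgeR adjusted p = 0.334). Eef1akmt1 had 55.8, 43.5 and 49.3 CPM in lines 3, 4 and 5 with doxycycline, against 36.5, 36.99 and 37.7 CPM without it, again without overlap (log2 fold change 0.42, standard error 0.13, edgeR adjusted p = 0.146). Eef2k encodes the kinase that phosphorylates eEF2 and slows elongation (ENSMUSG00000035064, chr7:120842831-120907450, plus strand). It had 13.4, 12.0 and 13.7 CPM in lines 3, 4 and 5 with doxycycline, against 15.2, 17.0 and 17.4 CPM without it. Each treated library lay below each untreated one (log2 fold change -0.34, standard error 0.15, edgeR adjusted p = 0.290). With the same offsets its log2 fold change was -0.22 (edgeR adjusted p = 0.510), and its ratio in line 3 was 0.03, against -0.17 without them. Eef2kmt, a methyltransferase of eEF2, had ratios of 0.22, -0.17 and -0.33 in lines 3, 4 and 5, and 23.0% of its exon bases overlap a gene on the opposite strand.

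Ratios of paralogs within a library do not depend on how libraries are scaled, and 8 pairs were compared with a 2-sided exact permutation test, for which 0.1 is the smallest p that 3 against 3 libraries allow. The smallest p was reached by 3 pairs, and each has an adjusted p of 0.267 over the 8 pairs, so none passes. The ratio of Eif1a to Eif1ax was 0.376, 0.362 and 0.403 in lines 3, 4 and 5 with doxycycline, against 0.491, 0.557 and 0.503 without it, a log2 difference of -0.44 (exact permutation p = 0.1). The ratio of Eif4g3 to Eif4g1 was 0.122, 0.146 and 0.160 in lines 3, 4 and 5 with doxycycline, against 0.203, 0.164 and 0.187 without it, a log2 difference of -0.38 (exact permutation p = 0.1). For Eif4e2 to Eif4e the ratio was 1.08, 1.02 and 0.812 in lines 3, 4 and 5 with doxycycline, against 1.13, 1.25 and 1.24 without it, a log2 difference of -0.32 (exact permutation p = 0.1). In these 3 pairs all treated libraries lay below all untreated ones. The other 5 pairs, Eif4a2 to Eif4a1, Eif4g2 to Eif4g1, Eif5a2 to Eif5a, Eif1b to Eif1 and Eif3j2 to Eif3j1, had exact permutation p-values of 0.3 to 0.7.

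Since the library of line 3 with doxycycline stood apart, the counts were repeated without it, which left 2 treated and 3 untreated libraries. At an edgeR adjusted p under 0.05, 5 of the 55 factor genes were then called, or 9.09%, against 10.4% of all tested genes, so the share of factor genes was near that of all genes. The 4 lower genes, against 5.79% of all tested genes called lower, were Eef2 at -0.93 (edgeR adjusted p = 0.00282), Eif3f at -0.47 (edgeR adjusted p = 0.0208), Eef1b2 at -0.47 (edgeR adjusted p = 0.0396) and Eif4b at -0.44 (edgeR adjusted p = 0.0432), all as log2 fold changes. The higher gene, against 4.57% of all tested genes called higher, was Eef1akmt2 at 0.47 (edgeR adjusted p = 0.0471). These 4 lower genes are among the 10 tested factor genes on a list of known TOP messages that was chosen with earlier results of these data known, and Eef1a1, Eef1g, Eef1d, Eif3a, Eif3e and Eif3h, the others on it, were not called. An enrichment was not tested. Without both libraries of line 3, Eef2 alone was called, with 4.5% of all tested genes. Line 3 also had the least Npm1 left, 3.39%, and a line, its hairpin and its remaining Npm1 cannot be told apart with 1 library each.

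**Figure D4:**
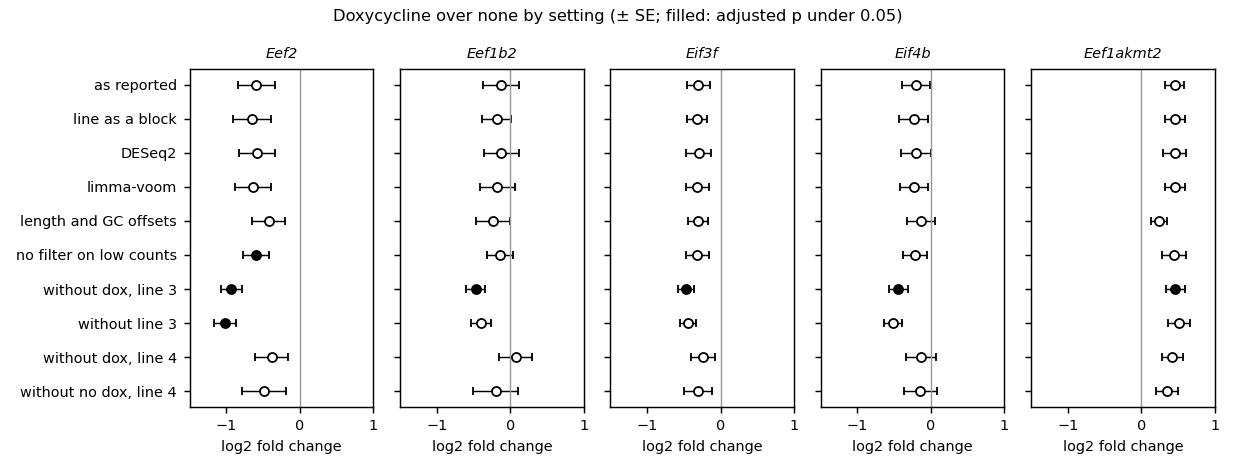
Log2 fold change with over without doxycycline (x axis, bars ± SE) under 10 settings of the fit for the 5 factor genes called in any of them; filled points have an adjusted p under 0.05. Eef2 is below 0 in each setting drawn and is filled without the filter on low counts, without the treated library of line 3 and without both libraries of line 3.

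The rest of the translation machinery was read from lists chosen with earlier results of these data known. The list of known TOP messages outside the ribosome has 17 tested genes, 10 of them among the factor genes described above. Of the 17, 14 had a log2 fold change below 0 (49.6% of all tested genes did), Npm1 was the only one called, and the median was -0.19, against 0.00 for all tested genes. Without Npm1, the median log2 ratio of the other 16 was 0.10, -0.44 and -0.38 in lines 3, 4 and 5, against 0.00, -0.01 and -0.00 for all tested genes, and 13 of the 16 were below 0 in both lines 4 and 5, against 35.9% of all tested genes. With total counts as the scaling these medians were -0.02, -0.31 and -0.31, against -0.10, 0.11 and 0.06 for all tested genes. Under both scalings the medians of the 16 lay above the median of all tested genes in line 3 and below it in lines 4 and 5. The 6 of them that are not factor genes had medians of -0.13, -0.67 and -0.43 with TMM. With total counts their medians were -0.25, -0.54 and -0.36. These 6 thus lay below the median of all tested genes in line 3 as well. The 45 tested factor genes outside this list had medians of 0.22, -0.04 and 0.01 in lines 3, 4 and 5. Pabpc1, the poly(A)-binding protein, had 398, 341 and 314 CPM in lines 3, 4 and 5 with doxycycline, against 503, 612 and 530.0 CPM without it. It was below its own control in each line but did not pass the threshold (log2 fold change -0.64, standard error 0.15, edgeR adjusted p = 0.0539). Vim, the intermediate filament vimentin, had 1375, 1205 and 1114 CPM with doxycycline in lines 3, 4 and 5, and 1512, 2285 and 1996 CPM without it (log2 fold change -0.65, standard error 0.19, edgeR adjusted p = 0.123). Tpt1, the gene of a tumour-associated translationally controlled protein, had 6816, 2823 and 3689 CPM with doxycycline in lines 3, 4 and 5, and 6268, 4774 and 5129 CPM without it. Rack1, a scaffold on the small subunit, had 8684, 4454 and 5076 CPM with doxycycline in lines 3, 4 and 5, and 7499.6, 6160.2 and 6652 CPM without it. In both, lines 4 and 5 with doxycycline were the lowest of the 6 libraries, as in Eef2 and Eef1b2.

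No gene of the other 7 lists was called at an edgeR adjusted p under 0.05. Among 16 tested genes of poly(A) and cap binding, 9 were above 0 and 7 below 0. Ncbp2, a subunit of the nuclear cap-binding complex, had 39.7, 61.0 and 46.6 CPM in lines 3, 4 and 5 with doxycycline, against 33.8, 28.3 and 32.2 CPM without it (log2 fold change 0.64, standard error 0.17, edgeR adjusted p = 0.0874). Of 11 tested mitochondrial translation factors, 10 were above 0. Mtrf1, a mitochondrial release factor, had 22.9, 22.6 and 25.9 CPM in lines 3, 4 and 5 with doxycycline, against 16.5, 15.1 and 16.8 CPM without it (log2 fold change 0.56, standard error 0.14, edgeR adjusted p = 0.0728). Its groups do not overlap. Mtrf1l, its paralog, had a log2 fold change of 0.29 ± 0.16 (SE). In the list of mTOR and cap control genes, 11 of 19 were above 0 and 8 below 0. Rptor, the raptor subunit of an mTOR complex, had 32.9, 36.4 and 42.8 CPM in lines 3, 4 and 5 with doxycycline, against 48.6, 56.0 and 51.5 CPM without it, below its control in each line (log2 fold change -0.48, standard error 0.14, edgeR adjusted p = 0.117). Ddit4, an mTOR inhibitor induced by stress, had 308, 157 and 212 CPM in lines 3, 4 and 5 with doxycycline, against 352, 352 and 296 CPM without it, also below its control in each line (log2 fold change -0.56, standard error 0.22, edgeR adjusted p = 0.232). Of 11 genes that make diphthamide, hypusine or selenocysteine decoding possible, 9 were above 0, with Dnajc24, a diphthamide gene, at 0.35 ± 0.14 (SE) and Dhps, the hypusine synthase, at 0.22 ± 0.12 (SE). The 22 cytosolic transfer RNA synthetase genes had 16 above 0 and medians of 0.29, -0.19 and 0.04 in lines 3, 4 and 5, with Hars at 0.29 ± 0.13 (SE) and Mars at 0.25 ± 0.15 (SE). The release, recycling and reinitiation genes had 9 of 15 above 0, with Mcts1 at 0.35 ± 0.15 (SE) and its copy Mcts2 at 0.37 ± 0.20 (SE). The eIF2 kinases and phosphatases had 6 of 10 above 0, with the heme-regulated kinase gene Eif2ak1 at -0.16 ± 0.15 (SE) and Gcn1l1, an activator of the kinase GCN2, at -0.11 ± 0.16 (SE).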

How the data were processed

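The authors deposited raw read counts for every gene, a file for each library, as whole numbers. HTSeq, STAR, Picard, CASAVA, bedtools, DESeq2 and R 3.3.0 are named with the build mm10 per the submitters' processing notes. Neither annotation release nor strand setting is given in the sources used here. Hence genes that overlap on opposite strands cannot be told apart, and per the file rows reads with more than 1 alignment were not counted for any gene. Rows that name no gene held 43.7% to 47.7% of the reads and were left out. Groups and line numbers came from the labels, and 0 columns of values were unused.

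Symbols, coordinates, lengths and overlaps came from GENCODE M21 on the same build, which named 48144 of 48526 identifiers. Levels per kilobase use the union of annotated exons. In R 4.3.3, edgeR 4.0.16 (filterByExpr, TMM, quasi-likelihood F test, treated against untreated, Benjamini-Hochberg adjustment over all 14531 tested genes) gave fold changes. A standard error is the log2 fold change, without its sign, over the root of F. The fit gave 18% as the biological coefficient of variation. For ratios within a line, 0.5 CPM was added to both values. A floor of 3 counts covers counting error only. The alternatives tried were scaling with RLE, no filter on low counts, a minimum mean of 5 CPM, the line as a block, DESeq2 1.42.0, limma-voom (limma 3.58.1), offsets for transcript length and GC content, an adjusted p under 0.1, and each library and line left out. The procedure was tested on simulated data.

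The line numbers pair the libraries, since each number is 1 stable cell line. Deviations of the libraries from their group mean, compared over all tested genes, gave Pearson's r of 0.0048, 0.0674 and 0.0276 for the same line (3, 4 and 5) and of -0.102 to 0.067 for different lines, so the pairing rests on the lines and not on this check.

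The members, the roles and the lists were chosen with earlier results of these data known. Values in every library are given for factor genes with an unadjusted p under 0.05, for the gene of highest level and the gene of smallest p in each role, and for the paralog pairs; from each other list the genes called were named or, where none was, the 2 of smallest p. Eif3c, Eif3d, Eif3f, Eif3g, Eif2b4, Eef1b2, Eef1g, Tpt1 and Rack1 were given in full, and Vim was named, after their values were seen.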

Additional observations from a re-analysis of the deposited data

Results flagged for a closer look

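In 5 factor genes the lines moved in opposite directions: with doxycycline the level was higher in line 3 and lower in lines 4 and 5, by at least 0.2 on the log2 scale each and with the same signs under TMM, RLE and total-count scaling. This size was chosen after the data were seen, and with 1 library per line and condition the difference between lines was not tested. The log2 ratio with over without doxycycline in lines 3, 4 and 5 was 0.26, -0.47 and -0.35 for Eef1b2, 0.34, -0.42 and -0.38 for Eef1g, 0.23, -0.41 and -0.31 for Eif3c, 0.35, -0.24 and -0.26 for Eif3d and 0.34, -0.49 and -0.55 for Eif4b. Over all 14531 tested genes, 4.29% showed this order, and 0 factor genes and 4.15% of all tested genes showed the opposite one. The treated library of line 3, which stood apart in its counts, was the highest of the 6 libraries in Eef1b2, Eef1g, Eif3d and Eif4b. In Eif3c it had 241 CPM, below untreated lines 4 and 5 at 283 and 265 CPM. The untreated library of line 3 was the lowest control in Eef1g, Eif3c, Eif3d and Eif4b, but the highest in Eef1b2. The part of either library of line 3 in the pattern was not tested.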

How the results depend on the processing

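The number of factor genes called was 0 as reported, 1 without the filter on low counts (Eef2) and 0 to 5 with a library or line left out. It was 0 under RLE scaling, total counts, a mean of at least 5 CPM, the line as a replicate block, DESeq2, limma-voom, the offsets and the block with offsets, and at an adjusted p under 0.1; the replicate block changed no call of a factor gene. Total-count scaling and the repeats of the ratios within lines were added after the data were seen. The median log2 fold change of the factor genes was 0.02 as reported, -0.01 with the block and offsets together, and -0.0132 to 0.0765 with a library or line left out. The number of all genes called was less stable: 332 as reported, 49 with a mean of at least 5 CPM, 243 with the block, 720 with DESeq2, 1052 without the filter, 1551 without the treated library of line 3, 664 without line 3, and 62 to 311 without each other library or line. Npm1 was at -3.63 to -2.55 with a library or line left out, and missed the threshold without the untreated library of line 3 (-2.99, edgeR adjusted p = 0.0937) and without line 4 (-3.07, edgeR adjusted p = 0.177). Of 55 factor genes, 29 kept their direction in every alternative and 26 did not, all of these with a reported size of 0.22 or less. The fold change of Eif1 turned to -0.0280 with the block, -0.0172 with limma-voom, -0.0731 with offsets and -0.10 with both, and that of Eif4g1 to 0.12 with offsets and 0.12 with both. With a library or line left out, Eif1 ranged over -0.25 to 0.20, Eef1a1 over -0.43 to 0.0115, Eif1b over -0.22 to 0.0858, Eif3h over -0.20 to 0.28, Eif4a2 over -0.16 to 0.14, Eif4e2 over -0.0114 to 0.14, Eif4g1 over -0.19 to 0.0327 and Eif5 over -0.16 to 0.0779. The causes were not tested. The number of factor genes that differ between lines stayed 0 under RLE scaling, no filter and limma-voom. Without the filter, however, 240 genes in all were called for the lines, against 0 as reported. There 6 factor genes had an unadjusted p under 0.05 in edgeR, against 2 as reported. The sign-flip test of the paralog ratios within lines cannot go below 0.25, and the 3 lowest pairs reached that value. The number of lines, with a median standard error of 0.15 on the log2 scale, limits what could be detected.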
